A study of Mus musculus with 8 samples.

Results

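The Ms4a genes described here are 8 members of the membrane-spanning 4A family: Ms4a1, Ms4a4a, Ms4a4b, Ms4a4c, Ms4a6b, Ms4a6c, Ms4a6d and Ms4a7. They were taken by gene symbol from all 55335 genes in the deposited tables, and their 30 transcripts were summed from 142351 in all. Total RNA came from a sort for CD8 T cells out of B16 melanoma, a mouse skin tumour line that had been given intravenously and left to grow for 14 days. The CD36_KO library came from hosts without the lipid scavenger receptor CD36 and the WT library from wild-type C57BL/6 hosts, and both kinds of host carried the same tumour. The labels give C57BL/6 as the strain background, but no age, number of animals per library or cell gates. The 8 deposited tables are titled as lanes 1 to 4 of 1 library for each genotype, so lanes were summed and no test of the genotype was possible. An SD over lanes measures repeat sequencing of a library and not the spread between mice.

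MS4A proteins cross the cell membrane several times, keep both ends inside the cell and sit beside receptors whose signals they can alter. Their genes lie side by side, and close relatives are used by different blood cells. Ms4a1 encodes CD20 of B cells. Ms4a4b and Ms4a6b are known from mouse T cells, while Ms4a4a, Ms4a6d and Ms4a7 are known from macrophages and Ms4a4c and Ms4a6c from monocytes. These lineages are not exclusive, and Ms4a6b, Ms4a4c and Ms4a6c are also seen in other leukocytes.

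The libraries held 10363391 estimated counts in CD36_KO and 10071960 in WT, with 2497048 to 2611740 in each lane. Cd36 itself had 358 counts in the CD36_KO library and 1194 in the WT library, a log2 ratio of -1.98 with a 95% counting interval of -2.15 to -1.80. All 12 CD8 T cell markers examined were at least 2-fold higher in CD36_KO, with a summed level of 667 to 731 TPM (transcripts per 1000000, a per-length unit) over the CD36_KO lanes and 139 to 152 TPM over the WT lanes. That list is named for the sort, and most of its genes mark T cells in general and not CD8 T cells alone. Against the sort label, markers of other cells were abundant in both libraries. The 12 macrophage markers summed to 1950 to 2007 TPM in CD36_KO and 1728 to 1823 TPM in WT. The lysozyme gene Lyz2 made up most of that sum in both libraries. The 10 melanoma markers were all at least 2-fold lower in CD36_KO, with 343 to 355 TPM there and 1044 to 1122 TPM in WT. In bulk RNA, a different number of cells of a type and a different amount of transcript per cell cannot be told apart.

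All 8 members were measured, meaning that their mean over both libraries was at least 5 counts per 1000000. Ms4a1 reached that mean only through the CD36_KO library, with 17.0 there and 2.4 in WT. Ms4a1, Ms4a4b, Ms4a6b and Ms4a4c were at least 2-fold higher in CD36_KO, no member was at least 2-fold lower, and 4 lay between. The call needed a log2 ratio of at least 1 in size, after trimmed-mean (TMM) scaling, and a counting interval that excluded 0. Over all 12177 measured genes 6.5% were called higher and 10.8% lower, 17.3% in either direction, while 50% of the members were higher. The members' median log2 ratio was 0.92, beside -0.13 over all measured genes. On the log2(TPM + 1) scale the median of all genes moved up by 0.50, to 0.37, and the members' median was 1.32. The members' counts summed to 7341 in CD36_KO and 2292 in WT.

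Ms4a4b, a mouse T cell protein known to bind the co-stimulatory receptor GITR, had the highest mean TPM of the members in both libraries when all its transcripts were summed. Its lanes held 792, 785, 808 and 822 counts in CD36_KO, against 144, 165, 135 and 162 counts in WT. Every CD36_KO lane was thus far above every WT lane. Summed over lanes this was 3207 counts in CD36_KO and 606 in WT, a log2 ratio of 2.17 (95% counting interval 2.04 to 2.29) or 4.49-fold. The labels name no molecular identifiers, so reads cannot be taken as independent molecules, and all intervals given here cover counting error only. In TPM the gene averaged 174 ± 5.31 in CD36_KO and 27.7 ± 4.19 in WT (SD over 4 lanes of 1 library). By that level it ranked 212 of 12177 measured genes in CD36_KO and 1083 in WT.

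Ms4a6b, the other member known from T cells, came next in level. It had 634, 588, 589 and 589 counts in the CD36_KO lanes, against 160, 149, 154 and 157 in the WT lanes. The lanes did not overlap, as was the case for 6 of the 8 members and for 52.9% of all measured genes. The summed counts of 2400 in CD36_KO and 620 in WT gave a log2 ratio of 1.71 (1.59 to 1.84), or 3.28-fold. Its level was 101 ± 6.86 TPM in CD36_KO and 21.2 ± 2.47 TPM in WT (SD over 4 lanes of 1 library).

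Both T cell members stood close to the CD8 T cell markers, whose median log2 ratio was 1.77 with a range of 1.20 to 2.26. Ms4a6b lay 0.05 below that median, above 6 of the 12 markers, and its nearest gene in ratio was Cd3e, a subunit of the T cell receptor complex, at 1.70. Ms4a4b lay 0.40 above the median, higher than 10 of the 12. As a share of the markers' summed counts per 1000000, Ms4a6b was equal to 18.6% in CD36_KO and 18.9% in WT. The same share for Ms4a4b was 24.8% in CD36_KO and 18.4% in WT. Over all transcripts Ms4a6b thus had nearly the same proportion to the T cell markers in both libraries, and Ms4a4b a larger one in CD36_KO. That contrast depends on the transcripts counted, since with protein_coding ones alone the log2 ratios were 2.34 for Ms4a4b and 2.34 for Ms4a6b. The nearest gene in ratio to Ms4a4b was S100a9, a neutrophil gene, at 2.19, in a search of 65 marker genes over 2 libraries. The part that the number of T cells plays in these ratios was not tested.

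**Figure D1:**
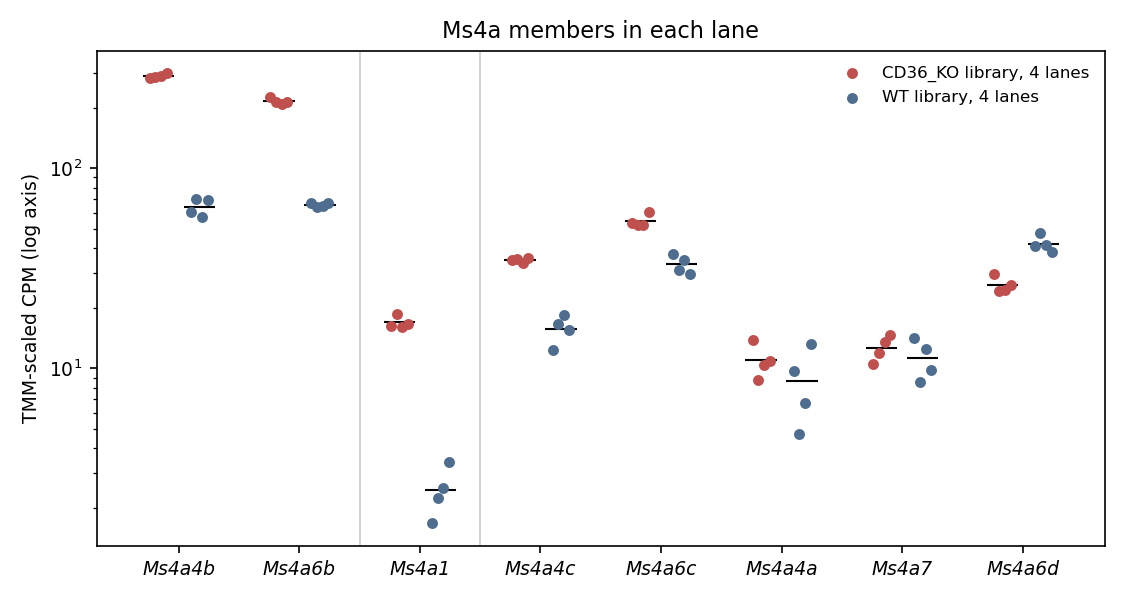
TMM-scaled counts per 1000000 (log axis) of each member in every lane, 4 CD36_KO lanes left of 4 WT lanes, with bars at the mean of the 4 lanes. For Ms4a4b the CD36_KO lanes lie between 283 and 299 and the WT lanes between 57.1 and 70.6, the Ms4a4a and Ms4a7 lanes overlap, and the Ms4a6d lanes are lower in CD36_KO.

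Ms4a1, which encodes the B cell surface protein CD20, had the highest ratio of the members by TMM-scaled counts and the lowest mean TPM. Its lanes held 45.7, 51.6, 45.3 and 46.1 counts in CD36_KO, against 4.0, 5.3, 6.0 and 8.0 in WT. The lowest CD36_KO lane was several times the highest WT lane, although the WT sum was small, at 23 counts beside 189 in CD36_KO. The log2 ratio was 2.80 (2.17 to 3.49), or 6.97-fold. The level was 4.05 ± 0.25 TPM in CD36_KO and 0.41 ± 0.14 TPM in WT (SD over 4 lanes of 1 library).

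Other B cell genes moved with Ms4a1. Of 12 B cell markers 9 were measured and 8 of these were at least 2-fold higher in CD36_KO, with a median log2 ratio of 2.35. Ms4a1 exceeded all 9 by TMM-scaled counts, by 0.45 over their median, whereas on the log2(TPM + 1) scale its 1.84 was 0.20 below theirs. At these low levels the added constant matters, and with 0.1 added the difference for Ms4a1 was 3.01. The nearest was Ighd, the heavy chain of IgD on naive B cells, at 2.79. The summed B cell markers gave 113 to 119 TPM in the CD36_KO lanes and 23.2 to 24.5 TPM in the WT lanes. The part of B cells in the sorted material was not tested.

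Of 7 transcription regulators known to act on Ms4a1 or its human counterpart, 4 were at least 2-fold higher in CD36_KO. Pax5, the B cell identity factor, had 112 counts in CD36_KO and 15 in WT, a log2 ratio of 2.66. Ebf1, Pou2af1 and Pou2f2, other B lineage regulators, had ratios of 2.05, 1.93 and 1.79. Spi1, the PU.1 factor shared by B and myeloid cells, had 700 counts in CD36_KO and 596 in WT and a ratio of -0.01 (-0.17 to 0.15). Spib and Irf4 lay between, at 0.75 and 0.13. Spib, Irf4 and Spi1 did not pass the 2-fold rule. For Spi1 the difference depended on the scale, with 42.3 TPM in CD36_KO and 24.9 TPM in WT, or 0.74 on the log2(TPM + 1) scale. Pax5 and Ebf1 also stand in the B cell list.

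Among the 5 members known from myeloid cells the ratios ran from 1.14 to -0.67. Ms4a4c, known from monocytes, had 97.6, 96.9, 93.7 and 97.7 counts in the CD36_KO lanes, against 29.2, 39.0, 44.0 and 36.5 in the WT lanes. It was the only myeloid member to pass the 2-fold rule, with 386 counts in CD36_KO, 149 in WT and a log2 ratio of 1.14 (0.86 to 1.42). Its TPM of 28.2 ± 8.22 in CD36_KO and 8.93 ± 3.23 in WT varied more over lanes than its counts did (SD over 4 lanes of 1 library). Most of that spread lay in Ms4a4c-203, a short transcript at 14.4 ± 9.96 TPM in CD36_KO and 4.51 ± 2.97 TPM in WT.

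Ms4a6c, the neighbouring monocyte gene, had 149.4, 142.7, 145.2 and 166.5 counts in the CD36_KO lanes, against 88.2, 72.5, 82.0 and 69.4 in the WT lanes. Its log2 ratio of 0.71 (0.52 to 0.92) fell short of 2-fold, with no overlap of the lanes. On the log2(TPM + 1) scale the difference was 1.08, past the threshold. The count of this gene depends on how reads were divided. BE692007, a processed transcript on the opposite strand at chr19:11470166-11484578 (GRCm38), overlaps Ms4a6c and holds 51.0% of its distinct 31-base words on either strand. BE692007 had 852 counts in CD36_KO and 201 in WT. No label states whether counting used strand, so reads of the overlapping genes cannot be told apart. With their counts added, an alternative chosen after seeing the data, the log2 ratio was 1.27 (1.12 to 1.41), and 5 members instead of 4 would be called higher.

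Ms4a4a, a macrophage protein known to associate with the fungal receptor Dectin-1, had 39, 24, 29 and 30 counts in CD36_KO lanes, against 23, 11, 16 and 31 in WT lanes. The lanes overlapped, and the log2 ratio of 0.35 had an interval of -0.06 to 0.78. Ms4a7, found on tissue macrophages and microglia, had 29.5, 32.7, 38.0 and 40.3 counts in CD36_KO, against 33.7, 20, 29.6 and 23.0 in WT. Its lanes also overlapped, with a ratio of 0.17 (-0.20 to 0.55). A difference for these genes was not detectable at this depth. Relative to the median of all genes, the direction for Ms4a7 depended on the scale, at 0.31 by TMM-scaled counts and -0.04 by log2(TPM + 1).

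Ms4a6d, a macrophage protein that in mouse associates with the receptor VSIG4, was the member that went the other way. Its lanes held 83.3, 67.0, 69.3 and 72.0 counts in CD36_KO, against 97.0, 111, 98.0 and 89.0 in WT, so each CD36_KO lane was below each WT lane. The sums of 292 in CD36_KO and 395 in WT gave a log2 ratio of -0.67 (-0.90 to -0.45), or 0.63-fold, which did not reach the 2-fold rule. In TPM its lanes overlapped, at 15.2 ± 2.21 in CD36_KO and 16.7 ± 2.49 in WT (SD over 4 lanes of 1 library), a difference of -0.12 on the log2(TPM + 1) scale. Relative to the median of all genes it was lower on both scales, by -0.54 for TMM-scaled counts and -0.49 for log2(TPM + 1).

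The macrophage markers had a median log2 ratio of -0.39 and ranged from -1.31 to -0.04, with 2 of 12 called lower, Adgre1 and Cd14, and none higher. On the log2(TPM + 1) scale the direction of that median turned, to 0.10, and Ms4a6d was 0.23 below it while Ms4a4c, Ms4a6c, Ms4a4a and Ms4a7 were 1.45, 0.98, 0.75 and 0.22 above it. Ms4a6d lay within that range, above 4 of the 12, and its nearest gene was the macrophage lysosomal gene Cd68, at -0.79. Ms4a4c, Ms4a6c, Ms4a4a and Ms4a7 each lay above all 12 markers by TMM-scaled counts. The 6 monocyte markers, of which 3 were at least 2-fold higher in CD36_KO, had a median of 1.07. Ms4a4c was 0.06 above that median and Ms4a6c 0.36 below it, while Ms4a6d was 1.74 below. Chil3, a secreted chitinase-like protein, made up most of the level of the monocyte list. By nearness of ratio alone, Ms4a4c was next to Cd2 of T cells at 1.20, Ms4a6c to Cd22 of B cells at 0.81, Ms4a4a to F13a1 of monocytes at 0.26 and Ms4a7 to Zbtb46 of dendritic cells at 0.09, each over 2 libraries. In summed TPM the monocyte markers gave 1295 to 1353 in the CD36_KO lanes and 451 to 483 in the WT lanes. The part of monocyte number in the ratios of Ms4a4c and Ms4a6c was not tested.

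Markers of further leukocytes also differed between the libraries. Of 7 neutrophil markers 6 were measured and 5 were at least 2-fold higher in CD36_KO, with a median log2 ratio of 1.68 and a summed level of 287 to 322 TPM in CD36_KO lanes and 46.6 to 54.8 TPM in WT lanes. Of 6 NK cell markers 3 were measured, and all 3 were higher. The list summed to 44.3 to 51.0 TPM in CD36_KO and 5.53 to 7.84 TPM in WT. Its most abundant gene was Gzma, at 31.2 TPM in CD36_KO and 2.78 TPM in WT. That gene does not by itself tell NK cells from T cells. Of 7 dendritic cell markers 6 were measured and none was called, with a median of -0.14 (0.19 on the log2(TPM + 1) scale) and a summed level of 51.9 to 61.8 TPM in CD36_KO and 29.3 to 40.2 TPM in WT. Their part in the ratios of the members was not tested.

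**Figure D2:**
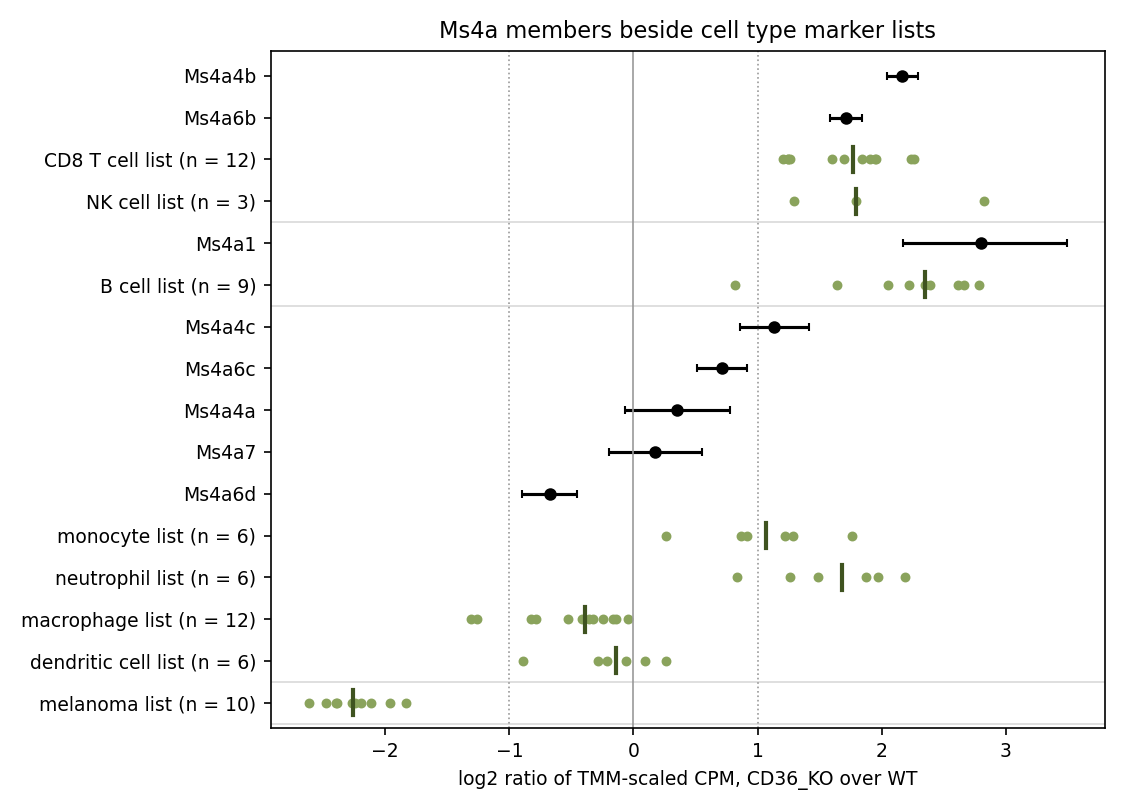
Log2 ratio of TMM-scaled counts per 1000000, CD36_KO over WT, of each member (black, with its 95% counting interval) and of the measured genes of each marker list (green points, bar at the median); dotted lines mark 2-fold. Ms4a4b and Ms4a6b lie among the CD8 T cell genes, Ms4a1 at the upper end of the B cell genes, and the 5 myeloid members spread from 1.14 to -0.67.

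The make-up of the family therefore differed between the libraries. Ms4a4b and Ms4a6b together held 74.5% ± 1.09 of the 8 members' summed TPM in CD36_KO and 49.5% ± 2.02 in WT (SD over 4 lanes of 1 library). The 5 myeloid members held 24.4% ± 1.07 in CD36_KO and 50.1% ± 2.15 in WT, and Ms4a1 held 1.10% ± 0.05 in CD36_KO and 0.42% ± 0.15 in WT. The summed TPM of the family was 369 in CD36_KO and 98.8 in WT. By counts the T cell share was 76.4% (exact 95% interval 75.4% to 77.3%) in CD36_KO and 53.5% (51.4% to 55.5%) in WT.

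In CD36_KO the order of mean TPM was Ms4a4b, Ms4a6b, Ms4a6c, Ms4a4c, Ms4a6d, Ms4a4a, Ms4a7 and Ms4a1. Neighbours from Ms4a6c to Ms4a4a overlapped over lanes, and the other neighbouring pairs did not. In WT the order was Ms4a4b, Ms4a6b, Ms4a6d, Ms4a6c, Ms4a4c, Ms4a4a, Ms4a7 and Ms4a1, where each neighbouring pair overlapped apart from Ms4a7 and Ms4a1. Over all transcripts, the TPM ratio of Ms4a4b to Ms4a6d within a library was 11.4 in CD36_KO (lanes 9.22 to 12.8). In WT it was 1.67 (lanes 1.37 to 2.04). The TPM ratio of Ms4a6c to Ms4a6d, both myeloid members, was 1.91 in CD36_KO (lanes 1.40 to 2.31) and 0.79 in WT (lanes 0.60 to 0.95). These ratios need no scaling between libraries, and the lanes did not overlap for either.

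Much of the signal of the T cell members came from transcripts that the tables class as retained_intron, spliced only in part and not expected to encode the full protein. For Ms4a4b these took 59.6% of counts in CD36_KO (57.9% to 61.3%) and 59.6% in WT (55.5% to 63.5%). For Ms4a6b they took 58.6% in CD36_KO (56.6% to 60.6%) and 70.2% in WT (66.4% to 73.7%), so the libraries' intervals overlapped for Ms4a4b and not for Ms4a6b. Over the 6877 measured genes with transcripts of both classes the median share was 12.6% in CD36_KO and 10.2% in WT. Ms4a6c had 11.6% in CD36_KO (9.15% to 14.4%) and 17.6% in WT (13.6% to 22.3%). Ms4a1 had 21.7% in CD36_KO (16.0% to 28.3%) and 34.8% in WT (16.4% to 57.3%), and Ms4a7 had 27.0% in CD36_KO (19.8% to 35.1%) and 14.2% in WT (8.14% to 22.3%). For Ms4a6c, Ms4a1 and Ms4a7 the intervals of the libraries overlapped.

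**Figure D3:**
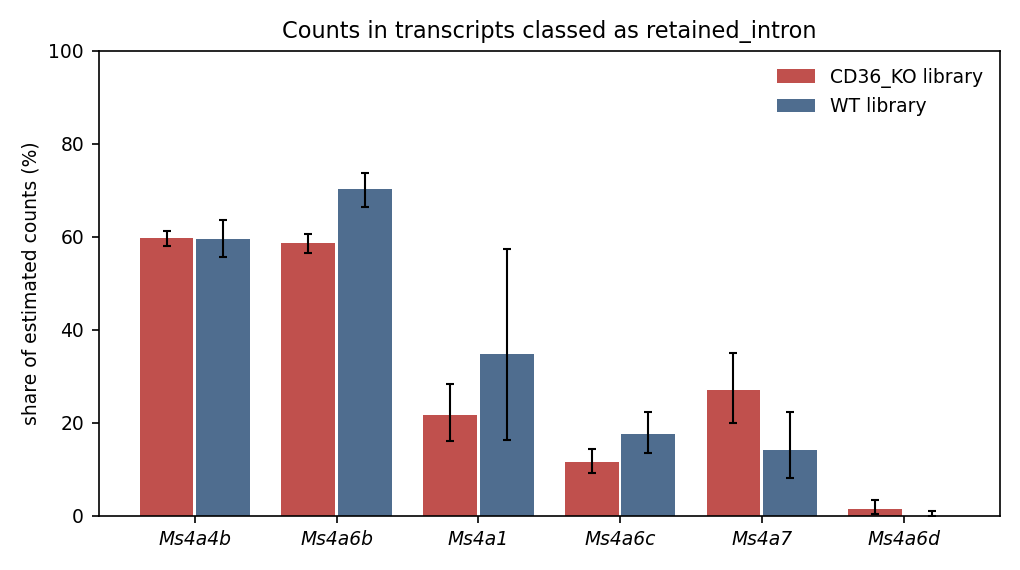
Share of each member's counts, as a percent, assigned to retained_intron transcripts, CD36_KO left of WT, with exact 95% counting intervals, for the 6 members that have such transcripts. Ms4a4b stands at 59.6% in both libraries, and Ms4a6b at 58.6% in CD36_KO and 70.2% in WT.

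With protein_coding transcripts alone, the levels of the T cell members were much lower and the order of the family changed. Ms4a4b then had 17.1 ± 0.36 TPM in CD36_KO and 2.60 ± 0.31 in WT, and Ms4a6b had 32.4 ± 2.77 TPM in CD36_KO and 5.29 ± 0.63 in WT (SD over 4 lanes of 1 library). Ms4a6b then had the highest mean in CD36_KO, next to Ms4a4c, whose lanes ran from 18.1 to 37.9 TPM and so spanned that mean. In WT Ms4a6d had the highest mean, at 16.7 ± 2.49 TPM. The T cell members held 37.6% of the family's protein_coding TPM in CD36_KO and 15.2% in WT. The genotype ratios went the same way, with log2 values of 2.34 for Ms4a4b and 2.34 for Ms4a6b, and the same 4 members were called higher.

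**Figure D4:**
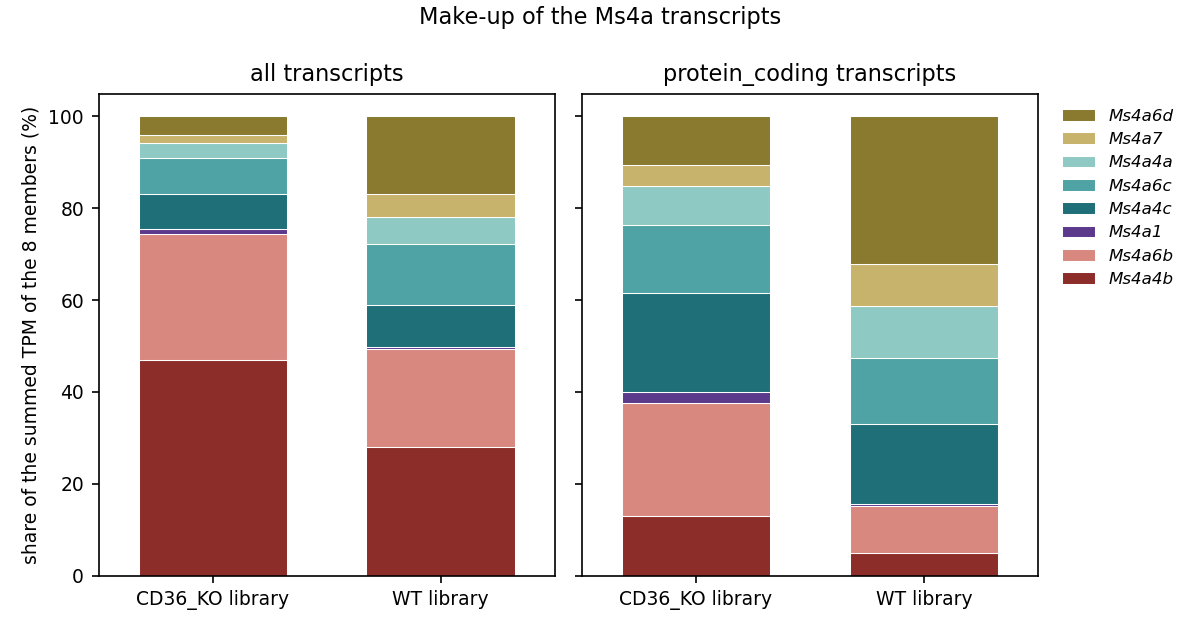
Share of each member in the summed TPM of the 8 members, as a percent, over all transcripts (left panel) and over protein_coding transcripts (right panel), with the CD36_KO library left of the WT library. Ms4a4b and Ms4a6b (reds) fill 74.5% of the CD36_KO bar and 49.5% of the WT bar over all transcripts, and 37.6% of the CD36_KO bar and 15.2% of the WT bar over protein_coding ones.

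Single transcripts showed where the shares held and where they shifted. The main protein_coding form, Ms4a4b-201, had 1295 estimated counts in CD36_KO and 242 in WT. Its share of the gene's counts was nearly the same, at 40.4% in CD36_KO and 40.0% in WT. The protein_coding form Ms4a6b-205 held 17.95% of the gene's counts in CD36_KO and 7.30% in WT, while the retained_intron form Ms4a6b-203 held 50.7% in CD36_KO and 60.4% in WT. For Ms4a7 the protein_coding form Ms4a7-202 had 10.3 counts in CD36_KO and 34.7 in WT, whereas Ms4a7-203 had 91.9 in CD36_KO and 56.9 in WT. Division of reads among transcripts of a gene is an estimate, and its error is not in the counts.

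The family lies in a cluster of 19 Ms4a genes over 679 kb of mouse chromosome 19, at chr19:10962293-11640851 (GRCm38, GENCODE release M21), and the 8 members span chr19:11249675-11604849. Ms4a1 (chr19:11249675-11266241), Ms4a7 (chr19:11321039-11336146) and Ms4a6d (chr19:11586604-11604849) are on the minus strand. Ms4a4a (chr19:11375523-11392790), Ms4a4c (chr19:11404770-11427246), Ms4a4b (chr19:11443553-11467055), Ms4a6c (chr19:11469366-11482192) and Ms4a6b (chr19:11516512-11531256) are on the plus strand. The T cell genes Ms4a4b and Ms4a6b thus alternate with the monocyte genes Ms4a4c and Ms4a6c. Gm8369, a protein-coding gene between Ms4a6c and Ms4a6b, was chosen after its values were seen. It had 446 counts in CD36_KO and 114 in WT, a log2 ratio of 1.73 (1.43 to 2.04). Ms4a4b shared 88 of its 8802 distinct 31-base words with Gm8369.

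**Figure D5:**
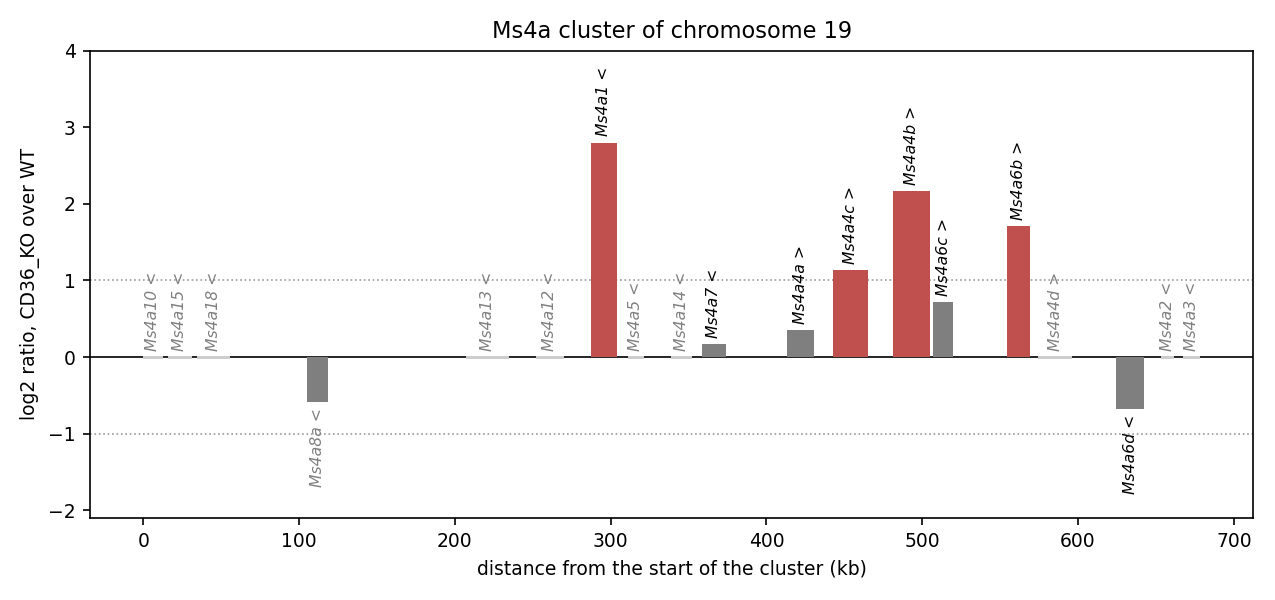
Log2 ratio, CD36_KO over WT, as the height of a bar drawn over the span of each measured Ms4a gene, against distance from the start of the cluster in kb. Red bars passed the 2-fold rule, grey lines at 0 are genes not measured, and > or < gives the strand. Ms4a4b at 2.17 lies between Ms4a4c at 1.14 and Ms4a6c at 0.71, and Ms4a6d at -0.67 follows Ms4a6b at 1.71.

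Of 42 other protein-coding genes within 500 kb of the cluster or inside it, 20 were measured. Their median log2 ratio was -0.25, with 3 higher, 1 lower and 16 between, beside 6.5% higher and 10.8% lower over all measured genes. The higher genes were Gm8369 and the T cell surface receptors Cd5, at 1.85, and Cd6, at 1.53. Stx3, a vesicle fusion protein, was the lower one, at -1.11. The most abundant by mean TPM over both libraries were Ddb1, a DNA repair protein, at -0.75, Cyb561a3 at 0.13 and the splicing factor Prpf19 at -0.48. In TPM, Ddb1 had 42.4 in CD36_KO and 35.6 in WT and Prpf19 had 23.6 in CD36_KO and 18.9 in WT, so the direction of these genes turned with the scale.

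The promoters of the pairs Ms4a4b with Ms4a4c and Ms4a6b with Ms4a6c are shown because in each pair a T cell gene and a monocyte gene are close relatives with different ratios. Each sequence is from RefSeq (GRCm38.p6), runs from 250 bases before to 50 bases after the start that RefSeq places, and is on the plus strand. Capitals mark the longest run of bases shared within the pair. For Ms4a4b with Ms4a4c, another run nearer the end of both windows is as long and is not marked.
Ms4a4b, chr19:11443308-11443607: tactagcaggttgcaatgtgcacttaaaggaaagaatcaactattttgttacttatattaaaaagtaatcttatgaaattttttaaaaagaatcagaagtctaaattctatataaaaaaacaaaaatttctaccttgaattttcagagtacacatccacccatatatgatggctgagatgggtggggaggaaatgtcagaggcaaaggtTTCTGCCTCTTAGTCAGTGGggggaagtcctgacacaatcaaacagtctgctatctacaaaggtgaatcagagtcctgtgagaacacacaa
Ms4a4c, chr19:11407411-11407710: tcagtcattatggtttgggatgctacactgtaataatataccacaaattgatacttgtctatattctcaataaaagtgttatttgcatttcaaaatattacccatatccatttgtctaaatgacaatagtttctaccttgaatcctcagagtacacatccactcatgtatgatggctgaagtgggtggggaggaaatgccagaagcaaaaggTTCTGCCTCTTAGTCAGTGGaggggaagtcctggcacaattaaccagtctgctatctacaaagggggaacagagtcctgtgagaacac
Ms4a6b, chr19:11518309-11518608: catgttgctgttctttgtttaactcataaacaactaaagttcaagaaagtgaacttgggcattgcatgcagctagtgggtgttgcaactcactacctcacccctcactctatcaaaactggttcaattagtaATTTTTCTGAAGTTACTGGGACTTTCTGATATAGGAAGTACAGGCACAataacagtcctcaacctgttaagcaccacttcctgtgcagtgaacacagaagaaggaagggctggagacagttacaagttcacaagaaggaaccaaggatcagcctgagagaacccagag
Ms4a6c, chr19:11469118-11469417: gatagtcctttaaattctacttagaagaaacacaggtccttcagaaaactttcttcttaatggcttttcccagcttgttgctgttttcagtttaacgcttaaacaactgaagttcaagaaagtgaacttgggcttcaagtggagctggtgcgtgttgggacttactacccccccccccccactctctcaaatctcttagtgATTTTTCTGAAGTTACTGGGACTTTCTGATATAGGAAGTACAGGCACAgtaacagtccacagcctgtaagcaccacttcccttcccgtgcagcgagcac

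Aligned without end penalty, the Ms4a4b and Ms4a4c windows were identical at 219 of 293 bases, or 74.7%, and their longest shared run was 20 bases. The Ms4a6b and Ms4a6c windows were identical at 184 of 227 aligned bases, or 81.1%, with a shared run of 48 bases. That run ends 71 bases before the start in Ms4a6b and 2 bases before it in Ms4a6c. Other pairs of member windows reached at most 51.8%. In TPM over all transcripts, Ms4a4b was 6.15 times Ms4a4c in CD36_KO (lanes 4.46 to 9.43) and 3.11 times in WT (lanes 2.45 to 4.88). These lanes overlapped. Ms4a6b was 3.50 times Ms4a6c in CD36_KO (lanes 2.99 to 3.94) and 1.61 times in WT (lanes 1.57 to 1.67), without overlap. These levels depended on the transcripts counted. With protein_coding ones alone, Ms4a4b had 17.1 TPM beside 28.2 for Ms4a4c in CD36_KO, and 2.60 beside 8.93 in WT. Ms4a6b then had 32.4 TPM beside 19.5 for Ms4a6c in CD36_KO, and 5.29 beside 7.51 in WT. In each pair the T cell gene had the higher genotype ratio, 2.17 beside 1.14 and 1.71 beside 0.71.

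RefSeq windows were matched for 6 of the 8 members, all but Ms4a1 and Ms4a6d, and Ms4a7 had a pair of them. On both strands, the ETS core GGAAGT was present in windows of 5 of these 6 genes and in 23.8% of 32851 promoters of the same length. The exception was Ms4a4a. The 5 genes include both pairs of close relatives, whose windows are similar, so these matches are not independent. The 48-base run shared by Ms4a6b and Ms4a6c contains the core. The octamer ATTTGCAT was found in Ms4a4c, 170 bases before its start, and in 1.74% of all promoters. The PU.1 motif GAGGAAGT, which contains the ETS core, was in no member window and in 3.20% of promoters. No member window held the RUNX motif TGTGGTT, the T-box motif AGGTGTGA, an EBF motif (TCCC and GGGA with 2 free bases between) or an IRF motif (GAAA and GAAA with 2 free bases between), found in 5.27%, 1.28%, 0.904% and 3.44% of promoters. A match describes letters and not binding.

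Sequence shared between transcripts limits how well the relatives can be told apart. Ms4a4c shared 227 of its 1747 distinct 31-base words, the unit that pseudoalignment matches, with Ms4a4b, and Ms4a6c shared 58.1% with any other gene. Ms4a6b shared 7.90% and Ms4a4b 5.46% with any other gene, and Ms4a4a shared none. By this measure Ms4a6c and then Ms4a4c, at 17.1% with any other gene, were the hardest to separate.

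The cluster holds 11 other Ms4a genes, of which only Ms4a8a was measured. Ms4a8a, known from mouse tumour-associated macrophages, had 284 counts in CD36_KO and 362 in WT, a log2 ratio of -0.59 (-0.82 to -0.36). It lay near Ms4a6d, and its level ran from 15.9 to 21.3 TPM over the CD36_KO lanes and from 16.7 to 21.3 TPM over the WT lanes. The other 10 were too low to measure. Ms4a12 had 33 counts in CD36_KO and 20 in WT, and Ms4a14 had 23 in CD36_KO and 11 in WT. Ms4a4d had 12 counts in CD36_KO and 4 in WT, Ms4a15 had 6 in CD36_KO and 2 in WT, and Ms4a5 had 2 in each library. Ms4a2, the beta chain of the high-affinity IgE receptor of mast cells and basophils, had 14 counts in CD36_KO and 4 in WT. Ms4a3, known from granulocyte and monocyte precursors, had 7 counts in CD36_KO and 0 in WT, and a count of 0 allows up to 3. Ms4a10, Ms4a13 and Ms4a18 were at 0 in both libraries.

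The mast cell and basophil list set beside Ms4a2 was almost silent. Its 7 markers summed to 2.19 to 6.35 TPM over the CD36_KO lanes and 1.00 to 2.65 TPM over the WT lanes. Mcpt4 and Tpsb2 were at 0 in CD36_KO, and Mcpt4, Mcpt8 and Fcer1a were at 0 in WT. Fcer1a, the ligand-binding chain that works with Ms4a2, had 1 count in CD36_KO.

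Receptors that MS4A proteins are known to bind or to be linked with were examined next. Of 7 partners 6 were measured, none was at least 2-fold higher in CD36_KO and 1 was lower. Over all measured genes 6.5% were called higher and 10.8% lower. Tnfrsf18, which encodes the GITR partner of Ms4a4b, had 64 counts in CD36_KO and 45 in WT, a log2 ratio of 0.27 (-0.30 to 0.85). Cd40, known with CD20 in human B cells, had 87 counts in CD36_KO and 78 in WT, a ratio of -0.08 (-0.54 to 0.38). For both genes the interval included 0, whereas the intervals of Ms4a4b and Ms4a1 lay wholly above 2.

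Of the myeloid partners, Clec7a, which encodes the Dectin-1 partner of Ms4a4a, had 1876 counts in CD36_KO and 1173 in WT, a log2 ratio of 0.44 (0.33 to 0.55). Ms4a4a was close to it, at 0.35. Vsig4, partner of Ms4a6d in mouse, had 78 counts in CD36_KO and 190 in WT, a ratio of -1.52 (-1.92 to -1.14). It was the partner called lower, while Ms4a6d, at -0.67, was on the lower side without being called. A link between the 2 ratios was not tested. By the same rule the macrophage markers Adgre1 and Cd14 were also called lower, at -1.26 and -1.31. On the log2(TPM + 1) scale Vsig4 was at -0.75 and Ms4a6d at -0.12, both short of 2-fold. Trem2, a lipid-sensing receptor linked to MS4A4A and MS4A6A in human, had a ratio of -0.49 (-0.73 to -0.24), and Fcer1g, the shared Fc receptor gamma chain, had -0.29 (-0.44 to -0.15). The direction of both turned on the log2(TPM + 1) scale, at 0.12 for Trem2 and 0.31 for Fcer1g, as did that of Cd40, at 0.03. Tmem176a and Tmem176b, relatives of the family outside the cluster that are used by myeloid cells, had ratios of -0.74 (-0.96 to -0.51) and -1.08 (-1.27 to -0.90), and Tmem176b passed the 2-fold rule. On the log2(TPM + 1) scale Tmem176a was at -0.20 and Tmem176b at -0.48, both short of 2-fold.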

How the data were processed

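Per the labels' protocols, total RNA from a CD8 T cell sort of B16 tumours was made into standard Illumina libraries. Per the submitters' processing notes, kallisto, DESeq2 and build GRCm38.p6 were used. Their versions, the read layout, the strand setting and the annotation release are not stated there. The deposited tables give estimated counts per transcript, unnormalised and not always whole, and TPM values that the authors' kallisto run scaled for length and lane total.

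Here counts were summed over the transcripts of each gene and over the 4 lanes of a library, then rounded. Counts per 1000000 were scaled by edgeR 4.0.16 (R 4.3.3), whose TMM factors were 1.071 for CD36_KO and 0.934 for WT. Genes with a mean of at least 5 per 1000000 were measured. Log2 ratios, CD36_KO over WT, have exact Clopper-Pearson 95% intervals, and a call needed 2-fold and an interval without 0. With 1 library per genotype no p-value is given. TPM differences used log2(TPM + 1). The scripts were tested on simulated data. Depth was 2569962 to 2611740 counts per lane in CD36_KO and 2497048 to 2538468 in WT.

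The members, gene lists and rules were chosen with earlier results of these data known. Named genes were the members, other Ms4a genes with a count, Tmem176a and Tmem176b, listed partners and regulators, Cd5, Cd6 and the 3 most abundant neighbours, the most abundant marker of a list, markers at 0, and the marker nearest in ratio to each member. Cd36 was added as the targeted gene, and Adgre1, Cd14, Stx3, Gm8369 and BE692007 were chosen after their values were seen. GENCODE release M21 on GRCm38 matched 99.1% of transcript identifiers. Alternatives were total counts, DESeq2 1.42.0 size factors, TPM, other filters on low counts, protein_coding transcripts only and each lane left out. Values of 1 listed gene are not reported here singly.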

Additional observations from a re-analysis of the deposited data

Results flagged for a closer look

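Dixon's ratio, the gap of an extreme lane to its nearest neighbour divided by the range of the 4 lanes, was computed for the TPM of the 8 members in each library. Of 16 such groups 2 had a lane that stood apart, and chance flags about 1 in 20 groups. For Ms4a1 in CD36_KO, lane 2 had 4.43 TPM beside 3.89, 3.92 and 3.97 TPM in the other lanes, and the ratio was 0.847. For Ms4a6d in CD36_KO, lane 1 had 18.5 TPM beside 13.7, 14.2 and 14.4 TPM in the other lanes, and the ratio was 0.851.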

How the results depend on the processing

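No member changed direction under any alternative, and the 4 members called higher stayed called in all 8 calculations that left out a lane and with total counts, DESeq2 size factors, no filter and protein_coding transcripts alone. With log2(TPM + 1) or log2(TPM + 0.1) Ms4a6c joined them, giving 5, and with a minimum of 20 counts per 1000000 only 5 members were measured and 3 were called, without Ms4a1. Total counts without TMM moved the median of all genes up by 0.20 and gave 2.36 for Ms4a4b and 1.91 for Ms4a6b. On the log2(TPM + 1) scale the ratios were 1.84 for Ms4a1, 2.60 for Ms4a4b, 2.21 for Ms4a6b, 0.85 for Ms4a4a, 1.56 for Ms4a4c, 1.08 for Ms4a6c and -0.12 for Ms4a6d. With 0.1 added instead they were 3.01 for Ms4a1, 2.64 for Ms4a4b, 2.26 for Ms4a6b, 0.94 for Ms4a4a, 1.65 for Ms4a4c, 1.13 for Ms4a6c and -0.13 for Ms4a6d. Protein_coding transcripts alone gave 3.22 for Ms4a1, 2.34 for Ms4a4b, 2.34 for Ms4a6b and 0.97 for Ms4a6c. Adding the counts of BE692007, chosen after seeing the data, gave 1.27 for Ms4a6c. Over all genes, 1501 were higher and 329 lower by log2(TPM + 1), 2291 and 490 by log2(TPM + 0.1), 2381 and 2471 without a filter, and 344 and 679 with the minimum of 20. Leaving out a lane gave 795 to 878 higher and 1178 to 1324 lower genes. The causes were not tested. No paired analysis was possible because each genotype has 1 library and lane numbers do not pair animals. Depth limits Ms4a1 in WT, with 23 counts, and Ms4a4a and Ms4a7, whose intervals include 0.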
